A study of Mus musculus with 6 samples.

Results

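The genes described here are 28 genes of cholesterol metabolism: the enzymes from the mevalonate pathway to cholesterol, the SREBP control proteins, a sterol transfer protein, and the sterol receptor LXR with its efflux and uptake targets. They were chosen by symbol, with earlier results of these data known. Of the 28, 26 had an array probe set with exactly 1 gene symbol, among 22180 genes tested in all. Idi1 shares its probe set with another gene and Acat2 is not analysed here. Signals are log2 values from 6 Affymetrix arrays of cultured myoepithelial cells, the contractile cells around the secretory acini of the mouse exorbital lacrimal gland. In the TSP1 null group (3 arrays) the cells came from female mice without functional thrombospondin-1 (TSP1), the matrix glycoprotein that Thbs1 encodes. In the wild-type group (3 arrays) they came from female C57BL/6J mice. Per the series title, these mice model dry eye disease, and the question is how the model's cells differ from healthy ones. No cells were treated, and both groups grew for about 2 to 3 weeks in medium with 10% serum, which itself carries lipoprotein cholesterol. No source used here gives the background strain of the null mice, the mutated part of Thbs1, the age of the mice or how many animals made up a culture. The arrays are labelled as biological replicates without separate cultures or animals being named, so p-values cover the spread among these arrays.

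Cells make cholesterol from acetyl-CoA. Mevalonate enzymes build isoprenoid units, squalene enzymes join and oxidise them, lanosterol is formed, and a last set of enzymes trims lanosterol to cholesterol. When sterol in the endoplasmic reticulum is low, SCAP escorts the SREBP transcription factors to the Golgi, where they are cut and freed to switch on these enzymes. When sterol is plentiful, INSIG proteins hold SCAP back, and LXR, which senses oxysterols, switches on export pumps. Insig1 is itself an SREBP target, so its transcript is known to follow theirs.

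Myoepithelial identity was checked first. Acta2, the smooth muscle actin of these cells, read 13.85 to 14.01 on the 6 arrays, and Myl9 and Tagln were also bright, though activated fibroblasts express these genes too. Fibroblast genes were bright as well, with Col1a1 at 12.56 to 13.53 and Postn at 12.77 to 13.28. Oxtr, the oxytocin receptor, read only 5.48 to 6.02, and the epithelial marker Trp63 read 4.47 to 4.93, below the median signal of 5.28 over all probe sets. Some markers of these types also differed between the groups. Krt14 and Krt17, basal keratins, read 5.78 to 6.35 and 5.24 to 6.10 in the null arrays against 4.93 to 5.52 and 4.71 to 5.18 in the wild-type arrays. These 2 and Trp63 had every null array above every wild-type array (3 of 10 myoepithelial markers), with differences of 0.89 (SE 0.20), 0.82 (SE 0.23) and 0.27 (SE 0.12). So did the collagen genes Col1a1, Col1a2 and Col3a1 (3 of 9 fibroblast markers), with differences of 0.54 (SE 0.15), 0.51 (SE 0.11) and 1.03 (SE 0.27). None of these 6 passed limma's test adjusted over all genes. Over all genes, 10.1% were higher in the null group without overlap. Both lists were mixed. Of the 10 myoepithelial markers 7 were higher and 3 lower in the mean, with Acta2 at -0.05 (SE 0.10). Of the 9 fibroblast markers 5 were higher and 4 lower, with Lum at -1.05 (SE 0.99) and Dcn at -0.55 (SE 0.32). The part of these cell types in the sterol values was not tested. Thbs1 read 12.73, 13.03 and 13.00 in the null arrays against 13.51, 13.75 and 13.54 in the wild-type arrays. Its transcript signal was thus still bright in the null group, and no source used here says whether its probes lie in the disrupted part. The cultures also held macrophage transcripts: all 19 macrophage markers had lower means in the null group, with list means of 7.40 to 9.84 in the null arrays and 9.68 to 10.46 in the wild-type arrays. In such bulk samples, fewer cells of a type and less RNA per cell cannot be told apart.

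Most enzymes of cholesterol synthesis had lower signals in the TSP1 null cultures. Of 16 enzymes measured, 14 had a negative difference (null minus wild type) and 2 a positive one, and their median difference was -0.50 on the log2 scale, or 1.41-fold lower. Over all 22180 genes the median difference was 0.02, and 44.9% had a negative difference. The 8 enzymes that turn lanosterol into cholesterol were all lower in the mean, and Insig1 was lower as well. The other control genes were not: Srebf1 and Srebf2 were close to 0, and Scap and Insig2 were higher in the mean. The 4 LXR and efflux genes had negative differences with overlapping groups.

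No single member passed the test across the array. With limma and Benjamini-Hochberg adjustment over all genes, 0 of 22180 genes (0%) had an adjusted p under 0.05, and 0 of the 26 members. The smallest adjusted p among the members was that of Fdps, at 0.29. At an unadjusted p under 0.05, 7 of 26 members (26.9%) were lower in the null group, against 4.27% of all genes, and 1 member, Insig2, was higher, against 6.28% of all genes. The 7 were Fdps, Msmo1, Nsdhl, Hsd17b7, Sc5d, Dhcr7 and Insig1. With 1 array left out at a time the count ran from 4 to 9. It was 4 (15.4%) when the first null, the third null or the first wild-type array was dropped. The share of all genes in these fits was 2.73%, 2.8% and 5.6%, in that order. It was 9 (34.6%) without the second null or the second wild-type array, against 5.57% and 4.03% of all genes. The 3 null arrays lay entirely below the 3 wild-type arrays for 5 members (19.2%), against 5.75% of all genes, and entirely above for 2 members, against 10.1% of all genes. These shares describe genes that share cultures and regulators, and the members are not independent replicates. A single gene compared by exact permutation of 3 against 3 arrays cannot reach a two-sided p below 0.1.

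The first wild-type array carried much of the size. It had the highest signal of all 6 arrays for 14 of the 16 enzymes, and 17 of the 26 members. Without it, 12 of 16 enzymes were lower in the null group, and their median difference was -0.23 in place of -0.50. Without it 4 members, Fdps, Msmo1, Nsdhl and Insig1, still had an unadjusted p under 0.05 in the lower direction (15.4%, against 5.60% of all genes). Fdps, Msmo1 and Insig1 kept that in each of the 6 fits that leave out 1 array. The lanosterol to cholesterol enzymes were lower for 8 of 8 in each of those 6 fits, with median differences from -0.62 to -0.35. The same array and the second null array were the brightest for the 9 fibroblast markers, at list means of 11.45 and 11.37, with the other 4 arrays between 10.55 and 10.89. Their order rested on Lum, left out after its values were seen, without which the second null array was highest, at 11.73 against 11.66, and the others lay between 11.09 and 11.49. The part of fibroblast content in the enzyme signals was not tested.

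**Figure D1:**
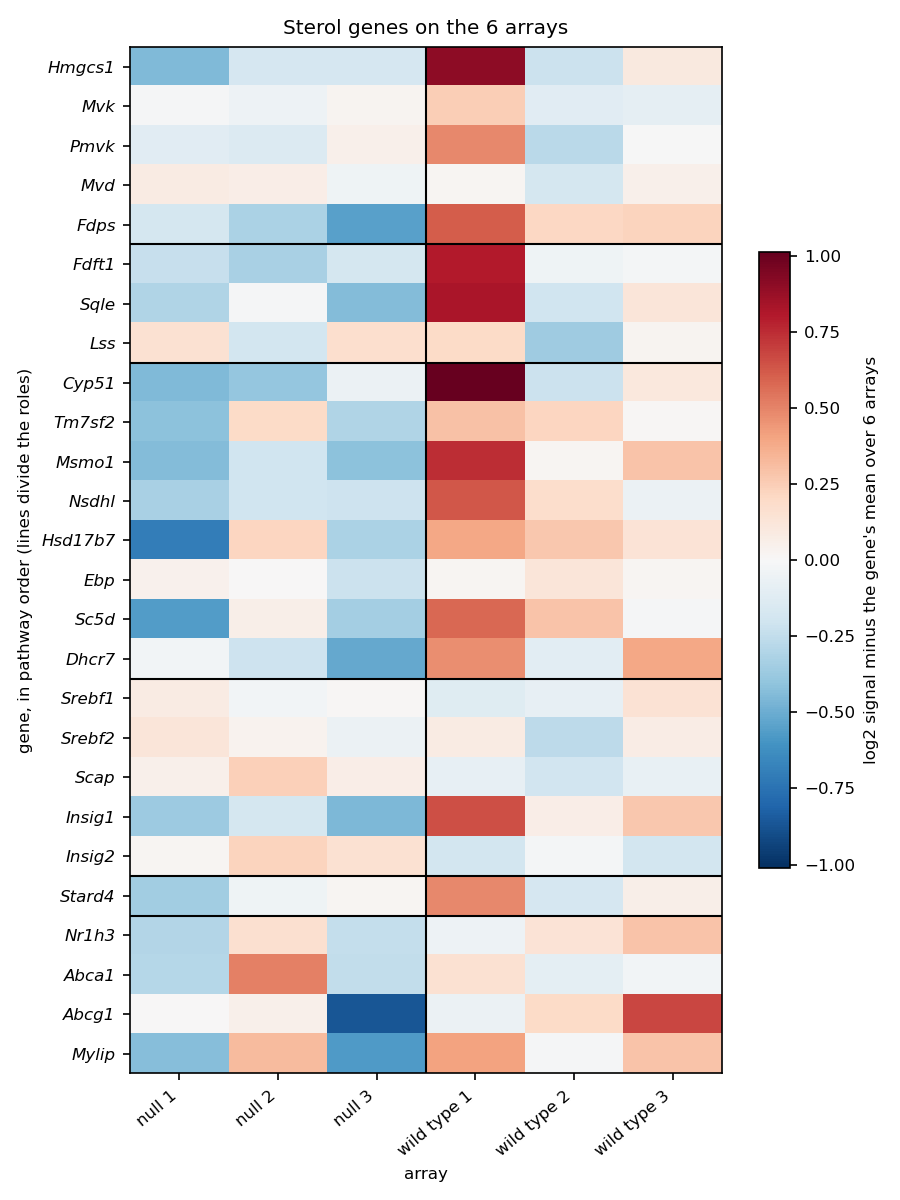
Heat map of the 26 measured genes in pathway order (rows) on the 6 arrays (columns); colour is the log2 signal minus the gene's mean over the 6 arrays, red for higher and blue for lower. The first wild-type column is the highest for 14 of 16 enzymes, while Srebf1 and Srebf2 vary little.

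Promoter sequence was set beside these values because many members share regulators. Of the 26 members, 21 had entries in the RefSeq promoter table (build GRCm38.p6), with 30 promoter entries in all. The 250 bases before each annotated start were searched on both strands. An SRE-type motif, taken as TCACNCCA, after the sterol regulatory element that SREBP binds, was found in 3 of 30 member promoters (10%) and in 3.67% of the 32851 promoters in the table. The CCAAT box, bound by NF-Y, a known partner of SREBP, was found in 19 of 30 (63.3%) against 33.8%. Counted by gene, all 13 enzymes with an entry had a CCAAT box in some entry, against 37.5% of 27025 genes. The GC box GGGCGG, bound by SP1, was in 73.3% of member promoters against 32.7%, and the E-box CACGTG in 20% against 6.02%. No motif here is contained in another. Matches describe letters in this window only.

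The 6 promoters printed here belong to the 3 members with the SRE-type motif and to the 3 others with the smallest p among members with an entry. They are shown 5' to 3' along the gene, 250 bases ending just before the start, and capitals mark SRE-type motifs (8 letters) and CCAAT boxes (5 letters, ATTGG where on the opposite strand).
Msmo1 (chr8:64733579-64733828, minus strand): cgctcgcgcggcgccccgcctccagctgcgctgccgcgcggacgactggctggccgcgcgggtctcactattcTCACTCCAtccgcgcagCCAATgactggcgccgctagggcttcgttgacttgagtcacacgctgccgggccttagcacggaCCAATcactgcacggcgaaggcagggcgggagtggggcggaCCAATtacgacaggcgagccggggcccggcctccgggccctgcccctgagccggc
Hmgcs1 (chr13:119690101-119690350, plus strand): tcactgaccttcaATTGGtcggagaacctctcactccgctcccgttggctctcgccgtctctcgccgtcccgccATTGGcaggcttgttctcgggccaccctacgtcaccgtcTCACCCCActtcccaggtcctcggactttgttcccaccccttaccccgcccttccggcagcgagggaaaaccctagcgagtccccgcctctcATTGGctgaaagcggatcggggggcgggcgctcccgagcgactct
Srebf2 (chr15:82147019-82147268, plus strand): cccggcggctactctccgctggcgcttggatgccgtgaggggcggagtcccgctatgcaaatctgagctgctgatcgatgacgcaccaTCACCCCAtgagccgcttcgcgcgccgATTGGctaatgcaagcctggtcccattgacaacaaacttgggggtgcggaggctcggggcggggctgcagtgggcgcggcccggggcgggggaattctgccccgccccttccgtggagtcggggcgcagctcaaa
Insig1 (chr5:28071162-28071411, plus strand): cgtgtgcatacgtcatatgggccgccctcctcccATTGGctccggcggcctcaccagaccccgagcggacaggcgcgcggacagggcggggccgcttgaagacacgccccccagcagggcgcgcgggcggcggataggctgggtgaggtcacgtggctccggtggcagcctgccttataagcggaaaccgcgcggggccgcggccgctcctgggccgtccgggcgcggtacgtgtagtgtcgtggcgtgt
Nsdhl (chrX:72918271-72918520, plus strand): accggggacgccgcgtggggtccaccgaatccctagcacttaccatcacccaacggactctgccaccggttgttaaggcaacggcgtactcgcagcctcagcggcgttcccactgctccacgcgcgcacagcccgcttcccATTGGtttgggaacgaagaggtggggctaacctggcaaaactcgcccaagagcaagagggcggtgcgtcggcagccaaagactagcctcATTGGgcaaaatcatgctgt
Sc5d (chr9:42264301-42264550, minus strand): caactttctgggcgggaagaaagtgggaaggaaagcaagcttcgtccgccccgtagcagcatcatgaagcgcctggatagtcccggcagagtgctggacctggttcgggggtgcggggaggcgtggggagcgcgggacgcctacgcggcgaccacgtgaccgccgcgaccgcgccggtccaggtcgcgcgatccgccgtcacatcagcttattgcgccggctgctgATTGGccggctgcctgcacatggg
In Hmgcs1 the SRE-type motif lies 137 to 130 bases before the start, between CCAAT boxes at 176 to 172 and 45 to 41. Msmo1 has it at 177 to 170 and Srebf2 at 162 to 155, each with a CCAAT box nearer the start. Of these 3 genes, Msmo1 and Hmgcs1 had negative differences (-0.70 and -0.53), while that of Srebf2 was 0.07.

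In the mevalonate steps, farnesyl diphosphate synthase was the gene that stood apart. Fdps, which makes the last isoprenoid precursor shared by sterols and prenylated proteins, read 8.93, 8.79 and 8.56 in the null arrays against 9.72, 9.32 and 9.33 in the wild-type arrays. All null arrays were below all wild-type arrays, with a gap of 0.39 between the nearest 2. The difference was -0.70 (SE 0.16, n = 3 per group; 95% interval -1.06 to -0.33), or 1.62-fold lower, with a limma adjusted p of 0.29. Hmgcs1, the synthase that makes HMG-CoA, read 9.87, 10.15 and 10.15 against 11.23, 10.10 and 10.42. Its groups overlapped, because the second wild-type array read below 2 null arrays. Its difference of -0.53 (SE 0.27) was -0.20 without the first wild-type array. The kinases Mvk and Pmvk and the decarboxylase Mvd, which carry mevalonate to the isoprenoid unit, differed little. Mvk had a difference of -0.03 (SE 0.13), Pmvk of -0.14 (SE 0.19) and Mvd of 0.07 (SE 0.11), all with overlapping groups. Without the first wild-type array, Mvk and Pmvk changed sign, to 0.09 and 0.07.

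In the squalene steps, 2 of 3 enzymes had negative differences. Fdft1, squalene synthase, commits isoprenoids to sterol. It read 9.46, 9.37 and 9.51 in the null arrays against 10.50, 9.65 and 9.68 in the wild-type arrays. The groups did not overlap, but the nearest 2 arrays were only 0.14 apart, and the first wild-type array stood far above the rest. The difference was -0.49 (SE 0.23, adjusted p = 0.497), or -0.22 without that array. Sqle, squalene epoxidase, the oxygen-dependent and rate-controlling step of this stretch, read 8.54, 8.84 and 8.41 against 9.67, 8.65 and 8.97. Its groups overlapped, with the second null array above the second wild-type array. Dropping the first wild-type array moved its difference from -0.50 (SE 0.26) to -0.21. Lss, which folds the epoxide into lanosterol, had a difference of 0.09 (SE 0.17) and a 95% interval of -0.31 to 0.50.

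The stretch from lanosterol to cholesterol held the most uniform differences, 8 of 8 negative with a median of -0.52, and 5 of 8 had an unadjusted p under 0.05 (62.5%, against 4.27% of all genes). That count changed when single arrays were left out. It was 2 of 8 when the first null, the third null or the first wild-type array was dropped. The share of all genes in these fits was 2.73%, 2.8% and 5.6%, in that order. In the other 3 such fits the count was 3 to 5, against 3.07% to 5.57% of all genes. Msmo1, the sterol methyl oxidase that removes the methyl groups at carbon 4, read 8.60, 8.83 and 8.62 in the null arrays against 9.78, 9.05 and 9.33 in the wild-type arrays. All null arrays lay below all wild-type arrays. Its difference of -0.70 (SE 0.19; 95% interval -1.15 to -0.26) meant a 1.63-fold lower signal, with an adjusted p of 0.325, and was within the error of that of Fdps. Nsdhl, the dehydrogenase of the same demethylation, read 9.19, 9.32 and 9.31 against 10.15, 9.70 and 9.46. Its groups did not overlap, and the null arrays lay within 0.13 of each other. The difference was -0.50 (SE 0.18, adjusted p = 0.403), and -0.31 once the first wild-type array was dropped. Hsd17b7, the ketoreductase that completes that demethylation, read 8.51, 9.43 and 8.90 against 9.61, 9.49 and 9.36. The second null array lay among the wild-type arrays. Its difference was -0.54 (SE 0.22), with a limma adjusted p of 0.462. It ran from -0.32 without the first null array (adjusted p = 0.798) to -0.78 without the second (adjusted p = 0.154).

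The remaining enzymes of this stretch had overlapping groups. Cyp51, the lanosterol demethylase, read 8.82, 8.88 and 9.21 in the null arrays against 10.28, 9.05 and 9.38 in the wild-type arrays. The first wild-type array was the highest by far, and the difference of -0.60 (SE 0.30) was -0.24 without it. Sc5d, the desaturase near the end of the path, read 9.47, 10.10 and 9.70 against 10.62, 10.33 and 10.03, a difference of -0.57 (SE 0.21). Its second null array read above the third wild-type array. Dhcr7, the last reductase, read 8.28, 8.10 and 7.79 against 8.78, 8.21 and 8.70, a difference of -0.51 (SE 0.19). Its first null array read above the second wild-type array. Tm7sf2, a sterol reductase, had a difference of -0.35 (SE 0.18), which ran from -0.53 without the second null array to -0.23 without the first. Ebp, the sterol isomerase, had -0.11 (SE 0.12). Ebp was thus the weakest of the 8, with a 95% interval of -0.38 to 0.16.

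**Figure D2:**
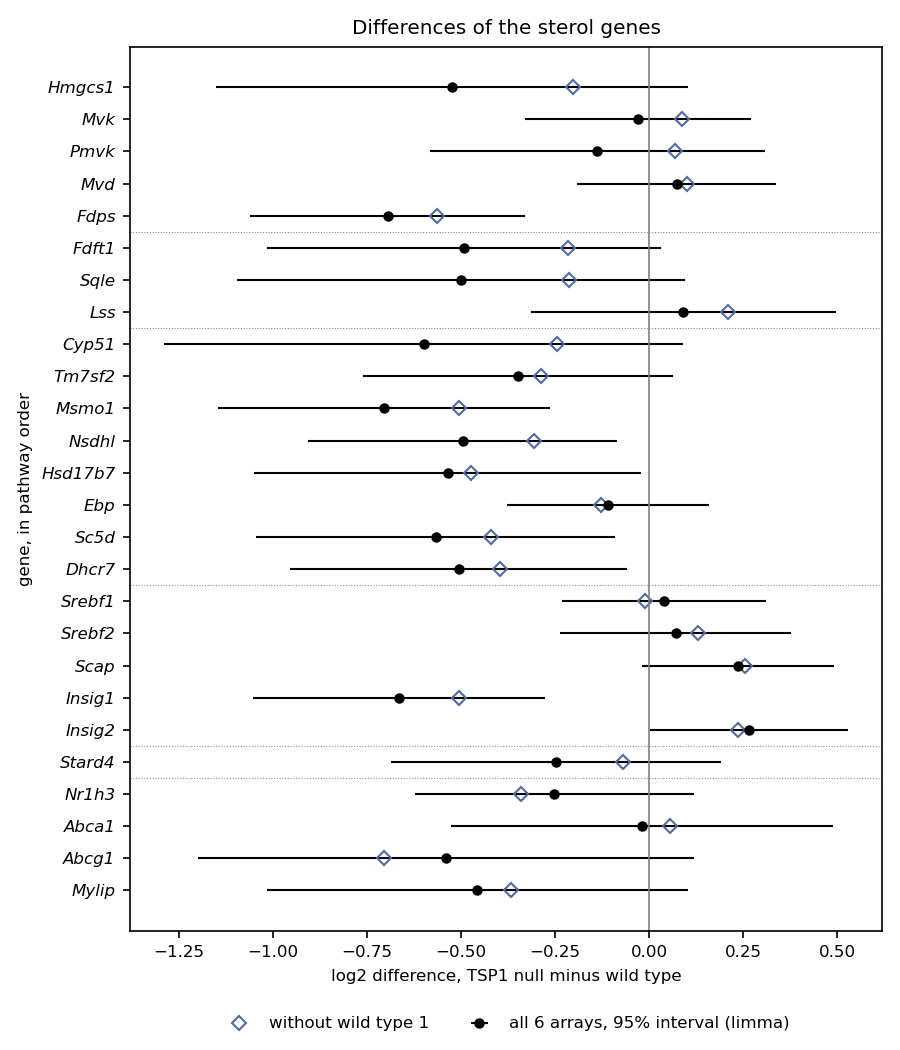
Log2 difference, TSP1 null minus wild type, of each measured gene in pathway order: filled points with bars are the limma estimates with 95% intervals from all 6 arrays, and open diamonds the estimates without the first wild-type array. The intervals of 7 genes lie wholly below 0 and that of Insig2 just above it; the diamonds of Hmgcs1, Fdft1, Sqle and Cyp51 lie nearer 0.

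Among the SREBP control genes the 2 INSIG genes went opposite ways. Insig1 read 9.51, 9.69 and 9.42 in the null arrays against 10.52, 9.94 and 10.15 in the wild-type arrays. All null arrays were below all wild-type arrays. The difference was -0.67 (SE 0.17; 95% interval -1.05 to -0.28), or 1.59-fold lower, with an adjusted p of 0.317, and it was -0.50 without the first wild-type array. Insig2, whose transcript is known not to follow SREBP as that of Insig1 does, read 7.90, 8.10 and 8.04 against 7.69, 7.86 and 7.69. All null arrays were above all wild-type arrays, though by only 0.04 at the nearest. The difference was 0.26 (SE 0.11; 95% interval from just above 0 to 0.53), or 1.20-fold higher, with an adjusted p of 0.472. The difference between the 2 genes' changes was not tested.

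The transcripts of the SREBP factors themselves differed little. Srebf2, which encodes the factor mainly tied to sterol enzymes, read 9.25, 9.16 and 9.07 in the null arrays against 9.21, 8.86 and 9.20 in the wild-type arrays. Its difference was 0.07 (SE 0.13; 95% interval -0.24 to 0.38). Srebf1, which encodes the factor more tied to fatty acid synthesis, read 7.70, 7.60 and 7.63 against 7.50, 7.54 and 7.77. Its difference was 0.04 (SE 0.12; 95% interval -0.23 to 0.31), so a change as large as that of Insig1 lay outside both intervals. Arrays read transcripts, and the cutting of SREBP proteins was not measured. Scap, the escort protein, read 8.77, 8.96 and 8.79 against 8.64, 8.53 and 8.65. Its groups did not overlap, and the difference was 0.24 (SE 0.11, adjusted p = 0.507). A dimmer second probe set of Scap gave 0.08. Stard4, a soluble sterol carrier that is also an SREBP target, differed by -0.25 (SE 0.19) with all arrays and by -0.07 when the first wild-type array was dropped.

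**Figure D3:**
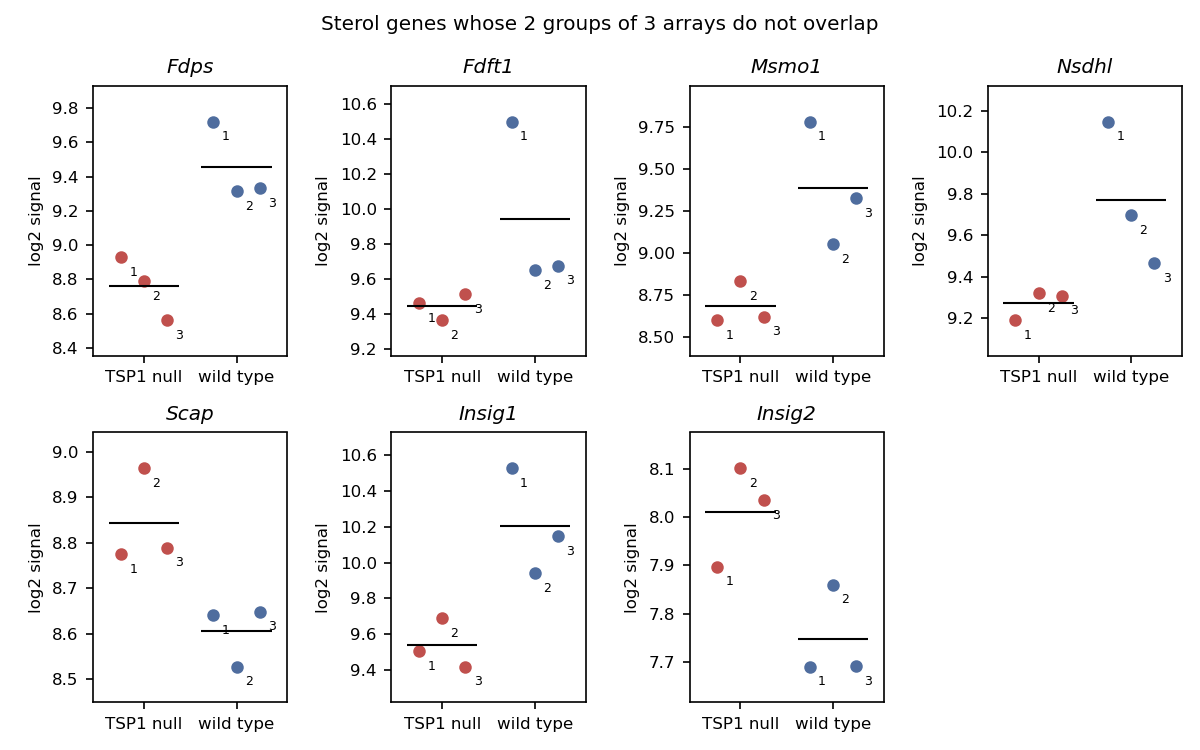
Log2 signals of the 7 genes whose groups do not overlap, with the 3 TSP1 null arrays in red, the 3 wild-type arrays in blue, array numbers beside the points and black bars at group means; each panel has its own axis, which does not start at 0. Fdps, Fdft1, Msmo1, Nsdhl and Insig1 are lower in the null arrays, and Scap and Insig2 higher.

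The LXR and efflux genes had negative differences without separation of the groups. Abca1, the pump that loads cholesterol onto lipid-poor apolipoprotein, read 9.64, 10.44 and 9.68 in the null arrays against 10.09, 9.83 and 9.91 in the wild-type arrays. The second null array was the highest of all 6 and the other 2 null arrays the lowest. Its difference was -0.02 (SE 0.22), and it ran from -0.28 without the second null array to 0.12 without the first. Abcg1, the pump that passes cholesterol to formed lipoprotein particles, read 6.64, 6.69 and 5.77 against 6.58, 6.83 and 7.32. The third null array was lowest and the third wild-type array highest. Its difference of -0.54 (SE 0.28) was -0.24 without the third null array. Mylip, the ubiquitin ligase that marks the LDL receptor for breakdown, read 7.50, 8.25 and 7.36 against 8.34, 7.92 and 8.23. Its difference was -0.46 (SE 0.24), with -0.73 once the second null array was dropped and -0.29 once the third null array was. Nr1h3, which encodes LXR alpha and is rich in macrophages, read 5.85, 6.32 and 5.91 against 6.10, 6.29 and 6.44, a difference of -0.25 (SE 0.16), which ran from -0.40 without the second null array to -0.17 without the first.

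The macrophage markers and the mean of these 4 genes had partly the same order over the arrays. The mean of the 4 around its level over the 6 arrays was -0.25, 0.26 and -0.48 in the null arrays against 0.11, 0.05 and 0.31 in the wild-type arrays. For the 19 macrophage markers it was -0.41, 0.38 and -2.05 against 0.23, 0.85 and 1.01. In both lists the third null array was lowest, the first null array next, and the third wild-type array highest. The second null array lay above the second wild-type array for the 4 genes, and below it for the markers. Gene by gene, Abcg1 and Mylip were lowest on the third null array, and Abca1 and Nr1h3 on the first. Markers of the list were bright, with Lyz2, Cd68 and Fcer1g at 9.53 or above on every array, and only Cd163 was below the median signal of all probe sets. Their part in the LXR result was not tested. The synthesis enzymes had another profile, at -0.25, -0.10 and -0.22 against 0.52, -0.03 and 0.08, with the third null array not apart from the others of its group.

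**Figure D4:**
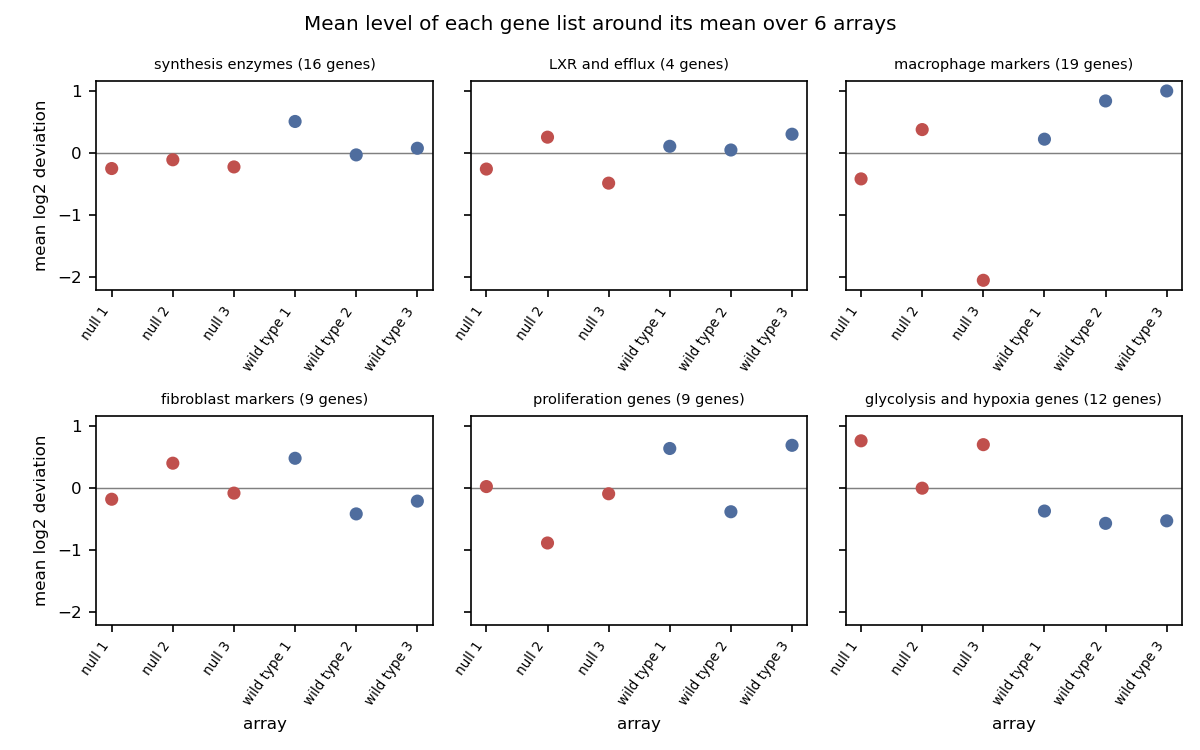
Mean log2 deviation of 6 gene lists from their own mean over the 6 arrays (vertical axis) on each array (horizontal axis), TSP1 null in red and wild type in blue. The synthesis enzymes peak on the first wild-type array, the LXR and macrophage lists are lowest on the third null array, and the glycolysis and hypoxia list is higher on the null arrays.

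Other lists also differed between the arrays. The 9 proliferation genes measured had means of 7.20 to 8.11 in the null arrays and 7.70 to 8.78 in the wild-type arrays, with all 9 lower in the mean. The highest were the third wild-type array, at 8.78, and the first wild-type array, at 8.73. The 12 glycolysis and hypoxia genes had means of 10.13 to 10.90 in the null arrays and 9.56 to 9.76 in the wild-type arrays, so the list means did not overlap. Gene by gene, 10 of the 12 had every null array above every wild-type array, against 10.1% of all genes, and 2, Pdk1 and Vegfa, overlapped. On the second null array, where this list was the lowest of its group, the enzymes had the highest mean of the null group, at 8.48, against 8.34 and 8.36. The part of proliferation or of the hypoxia genes in the sterol result was not tested. The 6 acinar markers had means of 4.93 to 5.07 in the null arrays and 5.26 to 5.34 in the wild-type arrays. These were near the median signal of all probe sets, but the list means did not overlap. Of the 6 genes, 5 were lower and 1 higher, and 3 were lower without overlap (50%, against 5.75% of all genes). Dcpp3, named after its values were seen, had -0.76 (SE 0.13, limma adjusted p = 0.194). Adipocyte markers averaged 5.15 to 6.05, with Fabp4 brighter, at 7.03 to 8.59. The part of these markers in the sterol result was not tested.

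Among wider sterol and SREBP pathway genes, positive differences were more common than negative ones, unlike among the enzymes. Among 10 other sterol and isoprenoid enzymes, which include those of the ubiquinone, dolichol and prenylation branches, 7 were higher and 3 lower, with a median of 0.07. Pdss2, of ubiquinone synthesis, had a difference of 0.43 (SE 0.13) and Nus1, of dolichol synthesis, 0.20 (SE 0.13). Each had the null arrays above the wild-type arrays (2 of 10, against 10.1% of all genes). Among 12 proteases, degradation factors and co-factors of SREBP, 8 were higher and 4 lower, with a median of 0.06. Mbtps1, the first protease that cuts SREBP, had 0.38 (SE 0.11). The ubiquitin ligases Rnf139 and Marchf6, which act in sterol-linked protein breakdown, had 0.31 (SE 0.11) and 0.25 (SE 0.11). These 3 had every null array above every wild-type array (3 of 12, against 10.1% of all genes). Nfya, a subunit of NF-Y, had -0.18 (SE 0.11). By limma adjusted over all genes, 0 genes of these lists passed.

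Uptake and storage genes were divided. Of 14 measured, 6 were higher and 8 lower, with a median of -0.09. Vldlr, a lipoprotein receptor, read 9.35, 8.87 and 9.59 in the null arrays against 8.47, 8.27 and 8.43 in the wild-type arrays. All null arrays lay above, with the second null array closest to the wild type, and the difference was 0.88 (SE 0.19, 1.84-fold, adjusted p = 0.285). Lrp1, another receptor of that family, had 0.23 (SE 0.11), and the oxysterol-binding proteins Osbp and Osbpl2 had 0.42 (SE 0.11) and 0.22 (SE 0.11). With Vldlr, these were the 4 of 14 wholly higher in the null arrays, against 10.1% of all genes, and were named for that reason. Lipa, the lysosomal acid lipase, and Nceh1, a cholesteryl ester hydrolase, named after their values were seen, had -0.66 (SE 0.24) and -0.90 (SE 0.35) with overlapping groups. Nceh1 read 7.97, 8.87 and 7.55 against 8.52, 9.24 and 9.33, lowest on the third null array as the mean of the macrophage markers was. The part of macrophage content in these values was not tested.

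LXR partners and targets outside the members were also divided in sign, with the larger differences on the negative side. Of 11 measured, 5 were higher and 6 lower, with a median of -0.09 and a range of -1.25 to 0.14. At a limma unadjusted p under 0.05, 2 of 11 were lower (18.2%, against 4.27% of all genes) and 0 higher (against 6.28%). Those 2 were Apoe and Smpdl3a. Smpdl3a, also named after its values were seen, had -0.60 (SE 0.19) with overlapping groups. Rxrb, a partner receptor, had 0.14 (SE 0.11) without overlap of the groups (1 of 11, against 10.1% of all genes). Apoe, the apolipoprotein that accepts exported cholesterol and a gene rich in macrophages, was named after its values were seen. It read 6.90, 7.42 and 6.21 in the null arrays against 7.19, 8.36 and 8.72 in the wild-type arrays. Its difference of -1.25 (SE 0.43) came with an overlap, since the second null array read above the first wild-type array. The part of macrophage content in it was not tested.

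Of 10 fatty acid synthesis genes that SREBP factors also control, 5 were higher and 5 lower, with a median of 0.0027. Fasn, Acaca and Acly, the core of fatty acid synthesis, had differences of 0.02, -0.02 and 0.14. Elovl6, a fatty acid elongase, read 8.33, 8.50 and 8.65 in the null arrays against 10.27, 9.29 and 9.20 in the wild-type arrays. Its groups did not overlap (1 of 10 wholly lower, against 5.75% of all genes). The difference was -1.09 (SE 0.27, 2.13-fold lower, limma adjusted p = 0.313). Scd1, the stearoyl-CoA desaturase, named after its values were seen, had -0.80 (SE 0.33) with overlapping groups, and like the sterol enzymes it was brightest on the first wild-type array, at 10.43.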

How the data were processed

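Total RNA (150 ng per array) of 3 TSP1 null and 3 wild-type samples, grouped by their titles, was measured on Affymetrix arrays. The deposited file holds the authors' log2 signals of 41345 probe sets. The submitters' processing notes name Partek and RMA, and versions, settings and genome build are not given. RMA compresses differences of dim probe sets. Of 23521 probe sets with 1 symbol in the platform table, that of highest mean signal was used per gene, giving 22180 genes with no filter on low signals. All 26 members lay above the median signal. Arrays have no depth, so their number limits the precision.

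Groups were compared as null minus wild type with limma 3.58.1 (lmFit, eBayes, two-sided) in R 4.3.3, and p-values were adjusted over all genes by Benjamini-Hochberg, threshold 0.05. The SE given is limma's. The procedure was tested on simulated data. Members, lists and alternatives were chosen with earlier results of these data known. Named are all members, Thbs1, up to 4 genes of smallest p per pathway list whose groups do not overlap, and up to 3 of the brightest genes per marker list. Trp63, Krt14, Krt17, Oxtr, Col1a2, Cd163, Lum, Pdk1, Vegfa, Fasn, Acaca, Acly and those marked in the text were named, and the 8-letter SRE motif chosen, after values were seen. Figures were drawn with Python 3.11.15 and matplotlib 3.10.9. Alternatives were other normalizations, a filter on dim genes, averaged or all probe sets, another prior, array weights, a replicate block, and leaving out each array.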

Additional observations from a re-analysis of the deposited data

How the results depend on the processing

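Under 14 alternatives, 0 members passed the threshold in any, and 20 of 26 members kept the sign of their difference in all. The count of genes over the whole array was 0 in the main setting and 2 with every probe set tested. Fits that leave out 1 array gave 0 to 34 genes and 0 members; the 34 came when the second null array was dropped, and dropping the first wild-type array gave 1. In these fits the median difference of the members lay between -0.49 and -0.21, that of the synthesis enzymes from -0.58 to -0.23 (nearest 0 without the first wild-type array), that of the SREBP control genes from 0.0064 to 0.13 and that of the LXR and efflux genes from -0.55 to -0.22. The sign changed for 6 members with small differences. With median centring it changed for Mvk (0.0086) and Abca1 (0.018), and with array weights for Mvk (0.031) and Srebf1 (-0.012). Without the first wild-type array it changed for Mvk (0.088), Pmvk (0.069), Srebf1 (-0.012) and Abca1 (0.054). Without the second wild-type array it changed for Lss (-0.066) and Srebf2 (-0.043), and for Abca1 without the first null array (0.12) or the third null array (0.10). With 1 array dropped at a time, Mvk lay between -0.095 and 0.088, Pmvk between -0.31 and 0.069, Lss between -0.066 and 0.21, Srebf1 between -0.012 and 0.12, Srebf2 between -0.043 and 0.13 and Abca1 between -0.28 and 0.12. The cause was not tested. The fibroblast means without Lum were added after seeing the data. With the replicate number as a block, 0 genes and 0 members passed, and the median of the members was -0.40. The labels do not say whether equal numbers pair the samples. Deviations of same-numbered arrays from their group means correlated at -0.14, 0.18 and -0.16, and those of differently numbered arrays at -0.18 to 0.26. Deviations from a mean of 3 arrays constrain each other, so these values cannot decide whether the samples were paired. With 3 arrays per group, the SE of a gene was 0.14 at the median over all genes. Differences well above the SE did not pass either. Fdps, at -0.70 (SE 0.16), had a limma adjusted p of 0.29, and the smallest of all genes was 0.16.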
